A study of Mus musculus with 4 samples.

Results

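Expression of 10 genes of bile acid synthesis and of its feedback through FXR, the nuclear receptor for bile acids, was followed in *Rap1*-deficient and wild-type mouse liver. The genes are *Cyp7a1*, *Cyp8b1*, *Cyp27a1*, *Cyp7b1*, *Hsd3b7*, *Akr1d1*, *Slc27a5* and *Baat*, which encode enzymes, and *Nr1h4* and *Nr0b2*, which encode FXR and its target SHP. They were chosen by name, and every non-control probe whose accession maps to one of them in RefSeq was taken, which gave 11 of the 55681 probes on the array. *Slc27a5* had 2 probes and each of the other genes had 1. All 11 probes were well above background on 4 of 4 arrays in both genotypes, so none was lost to the filter on dim probes.

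The *Rap1* -/- mice lack *Rap1* (*Terf2ip*), which encodes a telomere-binding protein, in the whole body, because floxed alleles had been deleted in early embryos by cre driven from the EIIa promoter. They and the wild-type mice shared the strain background C57BL6/129SV (90%:10%) and were labelled 30 weeks of age, while the study's text gives another age and the female sex. RNA of both genotypes was hybridised to each of 4 Agilent 2-colour arrays. In replicates 1 to 3 the RNA of *Rap1*-deficient liver was labelled with Cy5 and that of wild-type liver with Cy3, and the dyes were exchanged on the remaining array, the dye swap, which its number in the labels ties to replicate 1. The deletion is constitutive and in every tissue, and the labels do not say whether a sample is 1 liver or a pool. In whole liver, fewer cells of a type and less RNA per cell cannot be told apart.

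Bile acids are made from cholesterol in hepatocytes. In the classical route CYP7A1 hydroxylates the sterol ring and CYP8B1 adds the hydroxyl group that turns the product towards cholic acid, while in the alternative route CYP27A1 oxidizes the side chain and CYP7B1 hydroxylates the ring. Both routes share HSD3B7 and AKR1D1, and the finished acids are activated by SLC27A5 and joined to taurine or glycine by BAAT. Bile acids bind FXR, which induces SHP in liver and the hormone FGF15 in ileum, and both lower transcription of *Cyp7a1*.

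Values are log2 ratios of *Rap1*-deficient over wild-type liver within an array, after background correction and loess normalization, with the sign of the dye-swapped array turned. Log2 channel signals, scaled between arrays, are given per genotype and are compared within a probe or, for cell markers, summed over a list. Such sums rest mostly on the brightest probes. The share of all tested probes whose genotypes did not overlap was not counted, so a lack of overlap only describes the probe. The arrays of replicate 1 and the dye swap were averaged, so that n = 3 pairs, and limma was used at a Benjamini-Hochberg false discovery rate of 0.15 over 27513 probes, those well above background in 1 genotype or both on all 4 arrays. Of these, 9488 passed, 5717 higher and 3771 lower (60.3% of the calls higher, against 49.3% with the scanner software's signals, 45.3% with the authors' value table and 87.7% with median centring, which shifted the median over all probes by 0.15). The 3 arrays with *Rap1*-deficient liver in Cy5 correlated at r = 0.643 to 0.847 across the tested probes, while r lay between -0.243 and -0.288 for the dye-swapped array with each of them. The ratios had an SD of 0.245 on the dye-swapped array and of 0.481 to 0.506 on the others. In *Rap1*-deficient liver the *Terf2ip* probe A_52_P381806 was detected above background on 0 of 4 arrays, against 4 of 4 in wild-type liver, which makes it at least 3.33-fold lower (adjusted p = 0.00859), a bound against the lowest signal of detected probes that is open to dye bias. The other *Terf2ip* probe, A_55_P2094079, was detected on 4 of 4 arrays in both genotypes. It passed as higher, with a log2 fold change of 0.96 (adjusted p = 0.0329) and a ratio of 0.72 on the dye swap. Whether it lies inside the deletion is unknown from the sources used here.

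Of the 11 probes, 8 passed, 5 higher (*Cyp8b1*, *Cyp27a1*, *Akr1d1*, *Baat* and *Nr0b2*) and 3 lower (*Cyp7a1*, *Cyp7b1* and *Hsd3b7*) in *Rap1*-deficient liver. Over all tested probes 34.5% passed, 20.8% higher and 13.7% lower. The probes of *Slc27a5* and *Nr1h4* did not pass. On the dye swap the sign of the ratio matched that of the fold change for 5 of the 8 that passed, 2 of the 5 higher and 3 of the 3 lower. Among all probes that passed it did so for 30.5% of the higher and 44.9% of the lower ones, and 12.5% of the tested probes passed with the same sign on the swap. The median log2 fold change of the 10 genes, with *Slc27a5* by its brighter probe, was 0.24, against 0.00489 over the 13167 tested named genes.

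**Figure D1:**
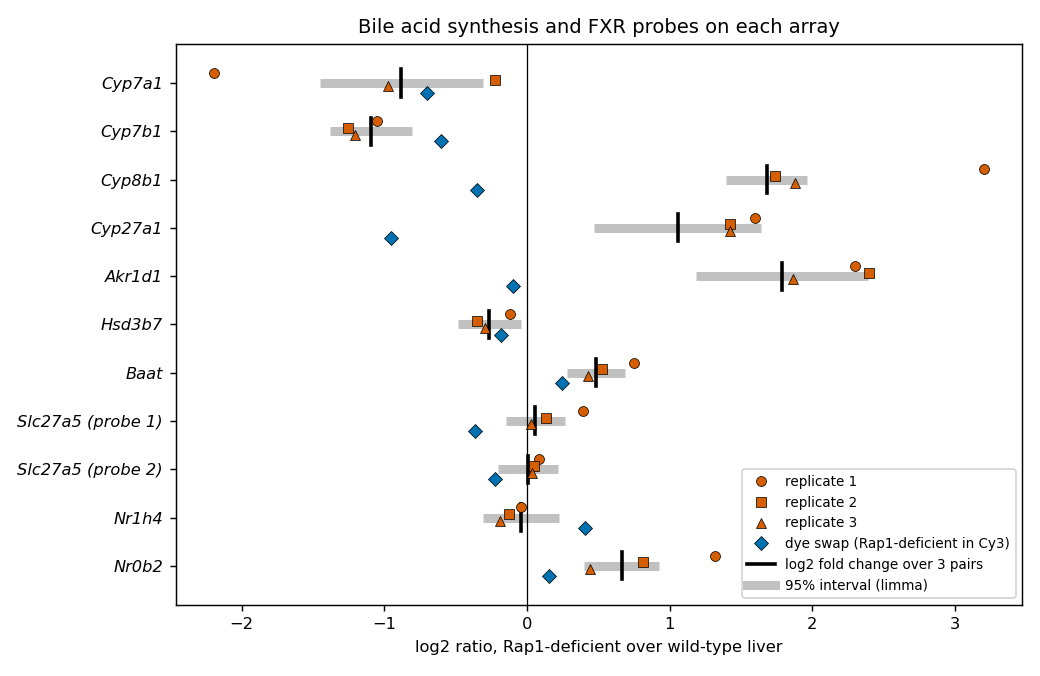
Log2 ratios of *Rap1*-deficient over wild-type liver for the 11 probes, with a point for each of 4 arrays, a black line for the log2 fold change over 3 pairs and a grey bar for its 95% interval from limma. *Slc27a5* probe 1 is A_51_P289742 and probe 2 is A_55_P2073557. For *Cyp8b1*, *Cyp27a1* and *Akr1d1* the 3 orange points lay at 1.42 or above and the blue point of the dye swap lay below 0.

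Of the hydroxylases, *Cyp7a1* of the classical and *Cyp7b1* of the alternative route were lower in *Rap1*-deficient liver on every array. *Cyp7a1*, the rate-limiting enzyme of the classical route, had log2 signals of 8.58, 10.45 and 9.71 in *Rap1*-deficient liver in replicates 1 to 3 and of 9.94 on the dye swap, against 10.77, 10.68, 10.68 and 10.64 in wild-type liver. The genotypes did not overlap, and the *Rap1*-deficient signals spanned a range of 1.88, against a range of 0.13 in wild-type liver. Within replicate 1 and its swap, Cy5 minus Cy3 was -1.36 log2 units in *Rap1*-deficient liver and -0.13 in wild-type liver. Part of the wide range thus lay between readings of the same pair. The log2 ratios of *Cyp7a1* were -2.19, -0.23 and -0.97 in replicates 1 to 3 and -0.70 on the dye swap. *Cyp7a1* fell by 0.88 on the log2 scale (SE, the standard error, 0.23, adjusted p = 0.0663 from limma), which is 1.84-fold lower. Replicate 2 held the smallest difference of the 4 arrays and replicate 1 the largest.

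*Cyp7b1*, the ring hydroxylase of the alternative route, had log2 signals of 10.57, 10.38 and 10.35 in *Rap1*-deficient liver in replicates 1 to 3 and of 10.54 on the dye swap, against 11.62, 11.63, 11.55 and 11.15 in wild-type liver. All 4 *Rap1*-deficient signals lay below all 4 wild-type signals. The log2 ratios were -1.05, -1.25, -1.20 and, on the dye swap, -0.60. *Cyp7b1* fell by 1.09 on the log2 scale (SE 0.11, adjusted p = 0.0402), 2.13-fold lower. On replicates 1, 2 and 3 its ratio stood at the percentiles 0.84, 0.254 and 0.305 of all tested probes, and at 1.57 on the dye swap, so it was near the lower end of every array.

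*Cyp8b1*, the hydroxylase that sets the share of cholic acid, had log2 signals of 10.92, 9.22 and 9.29 in *Rap1*-deficient liver in replicates 1 to 3 and of 8.75 on the dye swap, against 7.72, 7.48, 7.41 and 9.10 in wild-type liver. *Rap1*-deficient liver was higher wherever it carried Cy5 and lower on the dye swap. The log2 ratios were 3.20, 1.74 and 1.88 in replicates 1 to 3 and -0.35 on the dye swap. The mean over 3 pairs was 1.68 on the log2 scale (SE 0.11, adjusted p = 0.0201 from limma), 3.21-fold higher. It combines opposite signs on replicate 1 and its swap, a disagreement that the SE does not measure. Within replicate 1 and its swap the Cy5 reading exceeded the Cy3 reading by 2.18 log2 units in *Rap1*-deficient liver and by 1.38 in wild-type liver, so the probe read brighter in Cy5 in both genotypes. Averaged over the 3 arrays with *Rap1*-deficient liver in Cy5, the ratio was 2.27 ± 0.81 (SD, n = 3).

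The promoter of *Cyp8b1* is shown because HNF4, a liver nuclear receptor, is known to act on this gene in mammals. It is the sequence chr9:121916256-121916555, minus strand, from 250 bases before to 50 bases after the transcription start, from RefSeq on GRCm38.p6, with the match to CAAAGTCCA, an HNF4 element, in capitals.
Cyp8b1: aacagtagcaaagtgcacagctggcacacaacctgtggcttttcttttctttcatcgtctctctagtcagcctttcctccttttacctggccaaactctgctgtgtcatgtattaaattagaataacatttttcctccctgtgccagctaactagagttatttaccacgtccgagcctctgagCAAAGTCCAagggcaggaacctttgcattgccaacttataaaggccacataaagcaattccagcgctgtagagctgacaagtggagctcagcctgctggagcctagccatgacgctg
The match ran from base -67 to base -59 relative to the start, and 0.475% of the 32851 promoters searched held one on either strand. The window held no match to AAGGTCA (LRH-1), to TTAGGG (the telomeric repeat at which mammalian RAP1 is held by TRF2) or, with up to 2 mismatches, to the inverted repeat of AGGTCA with its reverse complement 1 base apart (FXR), which 4.72%, 10.6% and 1.14% of promoters held.

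*Cyp27a1*, the mitochondrial side-chain oxidase of the alternative route, was spotted 10 times on each array. Its log2 signals were 10.90, 10.70 and 10.69 in *Rap1*-deficient liver in replicates 1 to 3 and 10.30 on the dye swap, against 9.3, 9.28, 9.27 and 11.25 in wild-type liver. The wild-type signal was lowest on the 3 arrays where it was read in Cy3 and was the highest of all 8 signals where it was read in Cy5. The mean log2 ratios were 1.60, 1.42 and 1.42 in replicates 1 to 3 and -0.95 on the dye swap. The 10 spots spread little, with SDs of 0.08, 0.08 and 0.08 in replicates 1 to 3 and of 0.05 on the dye swap, where they lay between -1.01 and -0.87. The mean over 3 pairs, which combines opposite signs on replicate 1 and its swap, was 1.06 on the log2 scale (SE 0.23, adjusted p = 0.0519 from limma), 2.08-fold higher. Cy5 exceeded Cy3 by 0.60 log2 units in *Rap1*-deficient liver and by 1.95 in wild-type liver.

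The enzymes shared by both routes differed from each other. *Akr1d1*, the reductase that gives the sterol ring its bent shape, had log2 signals of 9.60, 9.55 and 8.87 in *Rap1*-deficient liver in replicates 1 to 3 and of 8.82 on the dye swap, against 7.30, 7.15, 7.01 and 8.91 in wild-type liver. The genotypes were far apart on 3 arrays and close on the dye swap. Its log2 ratios were 2.30, 2.40 and 1.87 in replicates 1 to 3 and -0.09 on the dye swap. The mean over 3 pairs, which combines opposite signs on replicate 1 and its swap, was 1.79 on the log2 scale (SE 0.24, adjusted p = 0.0402 from limma), 3.45-fold higher. Cy5 exceeded Cy3 by 0.78 log2 units in *Rap1*-deficient liver and by 1.61 in wild-type liver.

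The promoter of *Akr1d1*, chr6:37529923-37530222, plus strand, is shown because it was the only one of the 5 promoter windows found for genes that passed (*Cyp8b1*, *Cyp27a1*, *Akr1d1*, *Hsd3b7* and *Nr0b2*) with a match to TTAGGG, read on the minus strand and given in capitals (RefSeq, GRCm38.p6).
Akr1d1: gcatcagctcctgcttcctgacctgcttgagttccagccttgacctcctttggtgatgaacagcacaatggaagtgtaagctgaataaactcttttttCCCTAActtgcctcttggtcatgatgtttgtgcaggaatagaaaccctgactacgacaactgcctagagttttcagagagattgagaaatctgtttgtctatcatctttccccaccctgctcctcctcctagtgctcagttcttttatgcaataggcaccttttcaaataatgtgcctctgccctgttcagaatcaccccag
The match lay at bases -152 to -147 from the transcription start of the RefSeq promoter table. The annotated gene begins upstream of that start, at base 37529978 of chromosome 6, so the match lay inside the gene. The windows of *Cyp27a1* and *Nr1h4* also lay inside their annotated genes. The promoters of *Cyp27a1*, *Hsd3b7*, *Nr0b2* and *Nr1h4* held none of the 4 motifs in this window. A single copy of TTAGGG was searched for, which 10.6% of all promoters held, whereas the study names a repeat of it as the preferred RAP1 motif.

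*Hsd3b7*, the dehydrogenase that follows ring hydroxylation, had log2 signals of 15.22, 14.99 and 15.00 in *Rap1*-deficient liver in replicates 1 to 3 and of 15.08 on the dye swap, against 15.33, 15.34, 15.29 and 15.26 in wild-type liver. All *Rap1*-deficient signals lay below all wild-type signals, by a small step. The log2 ratios were -0.12, -0.35, -0.29 and, on the dye swap, -0.18, and *Hsd3b7* fell by 0.26 on the log2 scale (SE 0.09, adjusted p = 0.105), 1.2-fold lower. With median centring in place of loess the difference was -0.06 (adjusted p = 0.771), and the same setting left *Cyp7a1* at -0.72 (adjusted p = 0.163).

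**Figure D2:**
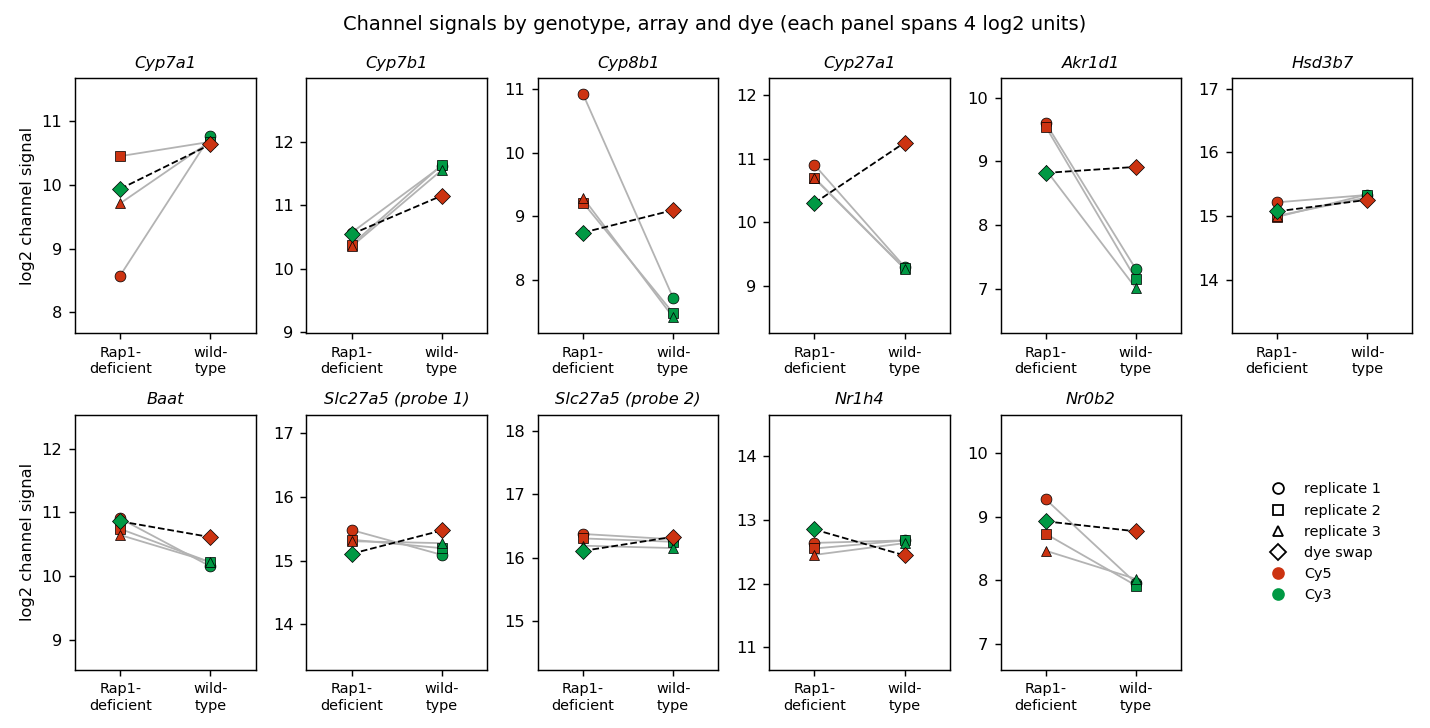
Log2 channel signals of each probe in *Rap1*-deficient (left) and wild-type liver (right), with a line for each of 4 arrays, the dye swap dashed, and points coloured by the dye in which the RNA was read. The line of the dye swap ran against the other 3 for *Cyp8b1*, *Cyp27a1*, *Akr1d1*, *Nr1h4* and both probes of *Slc27a5*. It ran with them for *Cyp7a1*, *Cyp7b1*, *Hsd3b7*, *Baat* and *Nr0b2*.

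Of the conjugating enzymes, *Baat*, which joins bile acids to taurine or glycine, had log2 signals of 10.90, 10.74 and 10.64 in *Rap1*-deficient liver in replicates 1 to 3 and of 10.86 on the dye swap, against 10.15, 10.22, 10.22 and 10.61 in wild-type liver. *Rap1*-deficient liver was higher on every array, and its lowest signal, 10.64, lay just above the highest wild-type signal, 10.61. The log2 ratios were 0.75, 0.52, 0.43 and, on the dye swap, 0.25, and *Baat* rose by 0.48 on the log2 scale (SE 0.08, adjusted p = 0.0402), 1.4-fold. *Slc27a5*, the bile acid ligase that acts before BAAT, did not pass with either probe. Probe A_51_P289742 had log2 ratios of 0.39, 0.13 and 0.03 in replicates 1 to 3 and of -0.37 on the dye swap, a mean of 0.06 with a 95% interval from -0.15 to 0.27 (adjusted p = 0.647). Probe A_55_P2073557 had 0.08, 0.05 and 0.04 and, on the dye swap, -0.22, a mean of 0.01 with an interval from -0.20 to 0.22 (adjusted p = 0.960).

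Of the feedback genes, *Nr0b2*, which encodes the repressor SHP and is a target of FXR, had log2 signals of 9.28, 8.73 and 8.47 in *Rap1*-deficient liver in replicates 1 to 3 and of 8.93 on the dye swap, against 7.96, 7.92, 8.02 and 8.77 in wild-type liver. *Rap1*-deficient liver was higher on every array, though its lower signals on replicates 2 and 3 did not exceed the wild-type signal on the dye swap. The log2 ratios were 1.32, 0.81, 0.44 and, on the dye swap, 0.16. *Nr0b2* rose by 0.66 on the log2 scale (SE 0.10, adjusted p = 0.0402), 1.58-fold. *Nr1h4*, which encodes FXR itself, had log2 signals of 12.64, 12.55 and 12.45 in *Rap1*-deficient liver and 12.85 on the dye swap, against 12.68, 12.68, 12.64 and 12.44 in wild-type liver. Its ratios were -0.04, -0.13 and -0.19 in replicates 1 to 3 and 0.41 on the dye swap, so the mean of -0.04 (95% interval from -0.31 to 0.22, adjusted p = 0.798) combines opposite signs.

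The 4 arrays were also fitted with a dye term, which takes from each probe the part that follows the dye instead of the genotype. Of all tested probes 6.7% passed in that fit, and 3 of the 11 members did. *Cyp7b1* was lower by 0.89 on the log2 scale (log2 fold change -0.89, SE 0.08, adjusted p = 0.0283), *Akr1d1* was higher by 1.05 (SE 0.12, adjusted p = 0.0413) and *Baat* by 0.41 (SE 0.09, adjusted p = 0.122). *Cyp7a1* kept its size with a wider error, -0.91 (SE 0.35, adjusted p = 0.267), and *Nr0b2* had 0.51 (SE 0.17, adjusted p = 0.219). The value of *Cyp8b1* was 0.96 (SE 0.29, adjusted p = 0.190) and that of *Cyp27a1* was 0.27 (SE 0.08, adjusted p = 0.192), the largest proportional loss among the 8. *Hsd3b7* had -0.22 (SE 0.08, adjusted p = 0.267). The fold changes of all 8 genes kept their direction. The fit rests on 1 array for the exchanged dyes, and it counts that array and replicate 1 as separate. Its SEs and p-values come from the spread of the 3 arrays with *Rap1*-deficient liver in Cy5. They do not measure the error of the dye swap, on which the fold changes also rest.

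**Figure D3:**
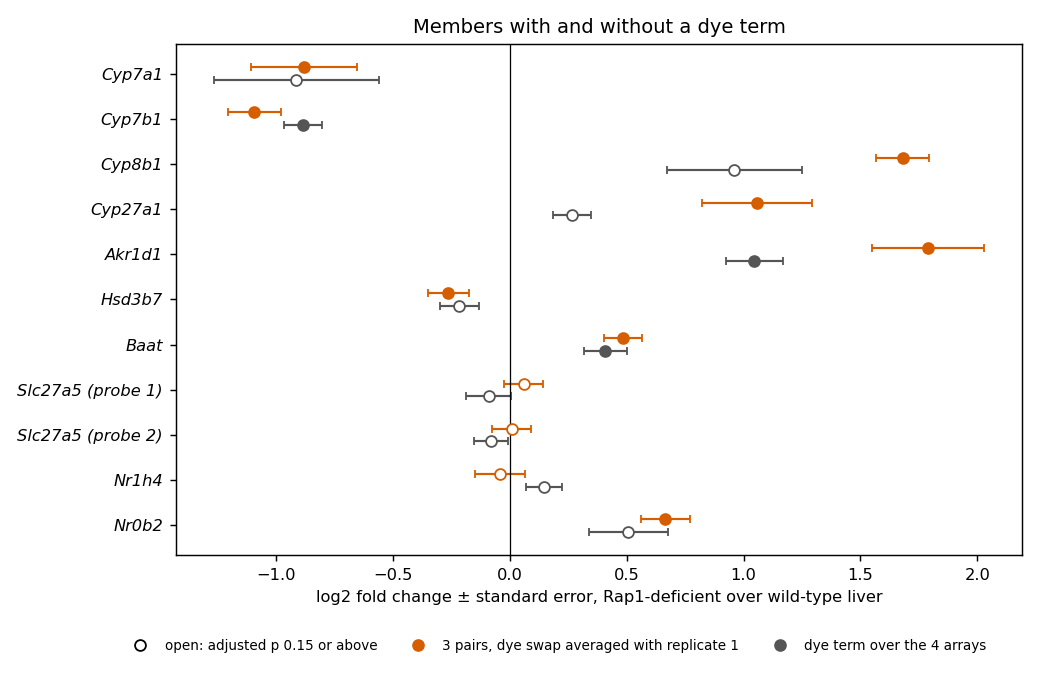
Log2 fold changes with their standard errors for the 11 probes over 3 pairs (orange) and with a dye term over the 4 arrays (grey), where filled points passed at an adjusted p under 0.15. *Cyp7b1*, *Akr1d1* and *Baat* were filled in both fits, and *Cyp27a1* moved to 0.27 with the dye term, against 1.06 over 3 pairs.

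The calls depended on which pair of livers was included. Without replicate 2 none of the 11 members passed in limma, and 7 of all 27513 probes (0.0254%) did, although 7 members had an unadjusted p under 0.05, as 3904 probes did. The fold changes of the 8 genes kept their direction there, from -1.21 for *Cyp7a1* to 1.65 for *Cyp8b1*. Without replicate 3, 5 members passed (*Akr1d1*, *Baat*, *Cyp8b1*, *Nr0b2* and *Cyp7b1*), beside 9.94% of all tested probes. Without replicate 1, which left out its dye swap as well, or without the dye-swapped array alone, all 8 genes passed. In these settings 45.8% and 52.7% of all probes passed too. In both, *Rap1*-deficient liver was read in Cy5 only, so genotype and dye cannot be told apart there. When the dye swap was counted as a replicate of its own, *Cyp7b1* alone of the members passed, beside 0.302% of all probes, with a log2 fold change between -1.23 and -0.86 over all settings run.

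Other genes of bile acid biology were examined in 3 lists of 44 genes, of which 42 were tested by their brightest probe. In all 23 passed, 12 higher and 11 lower, and 15 of the 23 had the same sign on the dye swap, whereas 34.1% of all tested named genes passed (18% higher and 16.1% lower) and 13.5% passed with the same sign on the swap. With the dye term 7 passed, and without replicate 2 only *Slco1a1* did. Of 13 tested further enzymes of synthesis, 4 rose and 4 fell, with a median log2 fold change of -0.25. *Slc27a2*, an acyl-CoA synthetase for very long chain and bile acid precursors, had log2 ratios of 1.76, 0.99 and 1.19 in replicates 1 to 3 and of 0.03 on the dye swap (log2 fold change 1.03, adjusted p = 0.0329). *Hsd17b4*, the peroxisomal enzyme of side-chain shortening, had 0.87, 0.46, 0.22 and, on the dye swap, 0.26 (log2 fold change 0.41, adjusted p = 0.0598). *Cyp2c70*, which makes muricholic acids in the mouse, had -0.95, -0.44, -0.38 and, on the dye swap, -0.41 (log2 fold change -0.50, adjusted p = 0.0431). *Cyp39a1*, an oxysterol hydroxylase, had -0.44, -0.63, -1.37 and, on the dye swap, -0.08 (log2 fold change -0.75, adjusted p = 0.0769), and without replicate 3 its value was -0.45 (adjusted p = 0.170).

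Of 16 regulators of *Cyp7a1* and *Cyp8b1* that were tested, 4 rose, 2 fell and 10 did not pass, with a median log2 fold change of 0.09. *Ppara*, the fatty acid receptor, had log2 ratios of 0.99, 0.94 and 0.90 in replicates 1 to 3 and of 0.15 on the dye swap (log2 fold change 0.80, adjusted p = 0.0402). *Prox1*, a corepressor in hepatocytes, had 1.15, 1.14 and 0.75 but -0.43 on the dye swap (log2 fold change 0.75, adjusted p = 0.0483), and *Mafg*, a repressor induced by FXR, had 0.27, 0.55, 0.36 and, on the dye swap, 0.24 (log2 fold change 0.39, adjusted p = 0.0614). *Foxa2*, a liver forkhead factor, had -0.99, -1.09, -1.20 and, on the dye swap, -0.06 (log2 fold change -0.94, adjusted p = 0.0402). Further members of this list were chosen after their values were seen, for their part in the feedback. The receptors *Nr5a2* (LRH-1), *Hnf4a* and *Fgfr4*, which carry the feedback to *Cyp7a1*, had log2 fold changes of 0.16, 0.05 and -0.08 and did not pass. *Klb*, the co-receptor of FGFR4 for the same signal, passed as lower, with log2 ratios of 0.04, -0.18, -0.26 and, on the dye swap, -0.49 (log2 fold change -0.22, adjusted p = 0.126). It did not pass with median centring, with the dye term over the 4 arrays or at an adjusted p under 0.05. Nor did it pass without the dye swap or without replicate 1, 2 or 3.

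Of 13 tested transporters of bile acids and sterols, 4 rose and 5 fell, with a median log2 fold change of -0.04. *Slco1a1*, an uptake carrier of the sinusoidal membrane, was detected on 1 of 4 arrays in *Rap1*-deficient liver and on 4 of 4 in wild-type liver. It passed as lower (adjusted p = 0.00479), but the size of the difference was not fixed, since the log2 fold change of -2.19 was -4.23 with the scanner software's processed signals. The exporters *Abcc3* and *Abcc4*, which carry bile acids out to blood, rose by 0.55 (adjusted p = 0.0402) and by 0.63 on the log2 scale (adjusted p = 0.0458), with 0.25 and 0.47 on the dye swap. *Abcc2*, the canalicular exporter of conjugates, had a log2 fold change of 0.63 (adjusted p = 0.0463) and -0.33 on the dye swap.

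**Figure D4:**
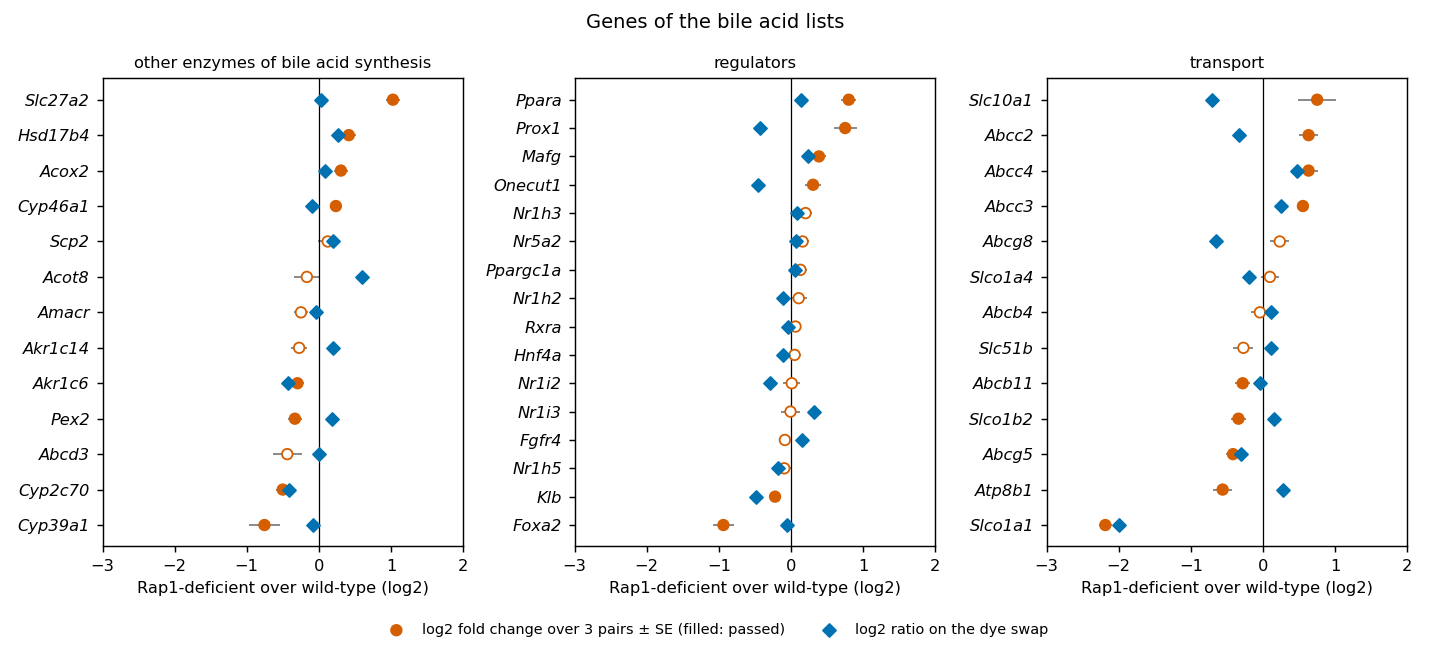
Log2 fold changes over 3 pairs with SE (orange, filled where passed) and the log2 ratio on the dye swap (blue) for the tested genes of the lists of further enzymes, regulators and transporters. *Slco1a1*, detected on 1 of 4 arrays in *Rap1*-deficient liver, has no fixed size, while *Prox1*, *Onecut1*, *Cyp46a1*, *Slc10a1* and *Abcc2* were higher over 3 pairs and negative on the dye swap.

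Markers of the cells that a liver sample can hold were measured beside these genes. Of 8 hepatocyte markers 7 were tested and 1 passed (*Alb*, log2 fold change 0.54, with -0.53 on the dye swap). On replicates 1 to 3 the summed log2 signal of the list was 19.6, 19.63 and 19.55 in *Rap1*-deficient liver, against 19.2, 19.29 and 19.28 in wild-type liver. On the dye swap the order was reversed, 19.12 against 19.68. The summed signal of 6 tested macrophage markers lay between 13.95 and 15.71 in *Rap1*-deficient liver and between 14.49 and 14.62 in wild-type liver. It was highest in the *Rap1*-deficient liver of replicate 3. Only *Vsig4* passed, lower at -0.28, with 0.13 on the dye swap. The summed signal of 6 stellate cell and fibroblast markers was 11.45, 11.56 and 12.83 in *Rap1*-deficient liver on replicates 1 to 3 and 11.66 on the dye swap. In wild-type liver it lay between 11.39 and 11.49. *Col1a2* alone passed, higher at 1.13, with log2 ratios of 0.69, 0.66 and 2.27 in replicates 1 to 3 and of 0.21 on the dye swap. Both were thus highest in replicate 3. Among 6 endothelial markers 3 passed, all higher (*Pecam1*, *Kdr* and *Tek*), but their log2 ratios on the dye swap were -0.09, -0.35 and -0.20. Over all tested named genes 34.1% passed, and 18% passed as higher. The summed signals of the endothelial list were 13.92, 13.95 and 13.83 in *Rap1*-deficient liver on replicates 1 to 3, against 13.53, 13.47 and 13.52 in wild-type liver. On the dye swap they were 13.7 against 13.85. Of 6 cholangiocyte markers 4 were tested and *Krt19* passed, at 0.38, while *Krt7* and *Epcam* were not well above background on every array in either genotype. Of the ileal genes *Fgf15* and *Fabp6* were well above background on 0 of 4 arrays in both genotypes, while *Slc10a2*, the third of them, was detected on 4 of 4 in both and did not pass, at 0.37. Among 4 adipocyte markers *Adipoq* was detected on 3 of 4 arrays in *Rap1*-deficient liver and on 0 of 4 in wild-type liver, *Plin1* on 2 in *Rap1*-deficient liver and 0 in wild-type liver, and *Lep* on 0 in both genotypes. *Cfd* alone was tested and did not pass, with log2 ratios of 2.35, 0.40, -1.12 and, on the dye swap, 2.28. The part of other cell types in the values of the 10 genes was not tested.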

How the data were processed

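Liver RNA of *Rap1*-deficient and wild-type mice was measured on 4 Agilent 2-colour arrays, extracted per the file headers with Agilent Feature Extraction 10.7.3.1, whereas the study's methods name another version. The authors deposited median spot and background intensities of both dyes, the software's processed intensities, flags and its log10 ratio of Cy5 over Cy3. They also deposited a table of log2 ratios, which the processing notes credit to limma, with its dye-swapped column already turned and its background correction and normalization not given in the sources used here. The medians of its columns were -0.01, -0.02 and -0.02 for replicates 1, 2 and 3 and 0.000826 for the dye swap. RNA integrity numbers lay between 6.6 and 8.7 per the labels, not split by genotype.

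In limma 3.58.1 under R 4.3.3, normexp with an offset of 50 was applied to the median intensities, followed by loess within arrays, in which control spots had weight 0. Outlier spots were left out, which removed 5 probes, repeated spots were averaged, and the sign of the dye swap was turned. Tested probes, 27513 of 55681 (49.4%), had a share of 0.5 or more of their spots well above background on all 4 arrays, in 1 genotype or both. In each channel from 50.1% to 56.4% of spots were well above background and 0 were saturated, and precision is limited by the number of arrays. Channel signals were scaled between arrays by Aquantile.

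Groups came from the labels, which do not say that the livers came from separate animals, so the p-values measure only the spread between these samples. The dye swap carries the number 1 in the labels and was averaged with replicate 1. The intercept over 3 pairs was tested with lmFit and eBayes, and p-values were adjusted by the Benjamini-Hochberg method over the tested probes, at the study's false discovery rate of 0.15. With 3 pairs an exact permutation test cannot pass 0.05, and none was run.

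Probes carry accessions only. Of 55681 probes, 26056 (46.8%) were named by accession through the RefSeq table of GRCm38.p6, and no name came from elsewhere. All probes of the 10 genes are reported, a list gene is represented by its brightest tested probe, and the genes with the smallest p, at most 4 a list, are named. The genes, lists and tests were chosen with earlier results of these data known. Promoters were matched by symbol, for 6 of the 10 genes.

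The alternatives were the software's processed signals, median centring, the authors' value table, other filters, other treatments of the dye swap, leaving out each replicate, a stricter threshold and means over the probes of a gene. After the data had been seen, the dye term was also fitted without the array of replicate 2 and without that of replicate 3.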

Additional observations from a re-analysis of the deposited data

Results flagged for a closer look

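On 2 of the 13 probes examined (the 11 of the bile acid genes and the 2 of *Terf2ip*), 1 of the 4 arrays lay far from the other 3. Chance puts about 1 in 20 sets of 4 values past this limit. Both times it was the dye-swapped array. The *Cyp27a1* probe A_51_P112817 had a log2 ratio of -0.95 there, and the gap to the nearest other array was 0.929 of the whole range. The *Slc27a5* probe A_55_P2073557 had -0.22 there, with a gap of 0.848 of the range. On that array the dyes were exchanged and the spread of all ratios was smaller, and the part of either in these values was not tested.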

How the results depend on the processing

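The 8 genes that passed and the 12 named list genes kept their direction under each setting in which they were fitted by probe. All settings shared arrays with *Rap1*-deficient liver in Cy5, and in each these were most or all of the arrays. A kept direction therefore does not tell genotype from dye. On the dye swap itself *Cyp8b1*, *Cyp27a1*, *Akr1d1*, *Prox1* and *Abcc2* had the opposite sign. *Slco1a1* was not tested with the filter on both genotypes, and means over the probes of a gene were used for counts only. The count of members that passed was 8 over 3 pairs, 3 with a dye term, 1 with the dye swap as a replicate of its own, 5 at an adjusted p under 0.05, 2 with the dye term and without the array of replicate 2, and from 0 to 8 when a replicate was left out, for probes and for genes alike. The count of list genes, 23, was 15 with median centring, 7 with the dye term, 1 with the dye swap as a replicate, 9 at 0.05, 1 and 15 with the dye term and without the array of replicate 2 or of replicate 3, and from 1 to 29 without a replicate. Of all tested probes, 9488 in the main setting, 1844 passed with the dye term, 83 with the dye swap as a replicate, 14496 without the dye swap, 2495 at 0.05, 131 and 4195 with the dye term and without the array of replicate 2 or of replicate 3, and from 7 to 12596 without a replicate. The members that did not pass changed sign. *Slc27a5* probe A_51_P289742 had -0.0091 with the processed signals, -0.037 with the value table, -0.091 with the dye term, and -0.078 and -0.052 with the dye term and without the array of replicate 2 or 3. Probe A_55_P2073557 had -0.16, -0.26 (adjusted p = 0.123, lower in that setting alone), -0.082, -0.081 and -0.077 in the same settings, -0.012 with the dye swap as a replicate, and from -0.016 to 0.045 without a replicate. *Nr1h4* had 0.12 with median centring, 0.15 with the dye term, 0.014 with the dye swap as a replicate, from -0.16 to 0.029 without a replicate, and 0.15 and 0.16 with the dye term and without the array of replicate 2 or 3. The causes were not tested. A random replicate block over the 4 arrays could not be fitted, because 3 blocks are too many for 4 arrays. No paired analysis was possible beyond the one reported, because each array already sets the genotypes against each other.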

Other observations

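Over the tested probes the median SD of the log2 signal across replicates 1, 2 and 3 was 0.142 in *Rap1*-deficient liver, read in Cy5, and 0.0628 in wild-type liver, read in Cy3. Genotype and dye cannot be told apart in this comparison. For *Cyp7a1* the range over these arrays was 1.88 in *Rap1*-deficient liver and 0.09 in wild-type liver. It was 1.70 and 0.30 for *Cyp8b1*, 0.81 and 0.10 for *Nr0b2*, 0.73 and 0.30 for *Akr1d1*, and 0.21 and 0.03 for *Cyp27a1*. The *Slc27a5* probe A_51_P289742 went the other way, with 0.176 and 0.184, and was the only member probe to do so.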
